A study of Mus musculus with 23 samples.

Results

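The right and the left retina of the same mouse were set against each other in 8 mice, which takes 16 of the 23 small RNA libraries of the series, 1 library per retina. A pair was formed by 2 libraries whose titles are equal except for a final R or L. That the last letter names the eye, and that the rest of the title names a mouse by cage and ear mark, is an inference from the titles and not a statement of the labels. Of the 903 mature miRNA rows, 388 had 10 or more counts in 3 or more of the 16 libraries and were compared. The other 7 libraries have no fellow retina among the samples and are not used here.

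All 8 mice carried 1 copy of the P23H rhodopsin knock-in allele (P23H+/- KI) and were sampled at postnatal day 90, so none of the comparisons includes a wild-type retina. The treated mice were 1 mouse given the human rhodopsin gene (human gRHO mouse 1), 4 given the mouse rhodopsin gene (mouse gRho mice 1 to 4) and 1 given saline (saline mouse 1). Another 2 mice were not injected (uninjected mice 1 and 3). The labels give both retinas of a mouse the same treatment and do not say which eye was injected, by which route or when. The human gRHO and saline groups have 1 mouse each here, so neither has a spread between mice of its own. RNA came from flash frozen retinas by Trizol extraction and was turned into libraries with a NEXTflex small RNA kit (v3).

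MicroRNAs are short RNAs that guide silencing complexes to messenger RNAs, mainly through the seed, the bases near the 5′ end that pair with the target. In the retina, miRNAs of the miR-183 cluster mark photoreceptors, miR-124 and miR-9 are abundant in neurons, and miR-204 and miR-211 belong to the pigment epithelium and glia. The P23H protein misfolds in rods, and mice with this allele lose photoreceptors slowly, which makes them a model of retinitis pigmentosa. Fellow retinas share genotype, age and circulation, so the difference within a mouse holds these constant.

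The miRNAs on which the results turn are printed here with the mature sequences of RefSeq (mouse, GRCm38.p6), 5′ to 3′ and with the seed (bases 2 to 8) in capitals. A deposited row names its locus without an arm. The arm printed is the one usually described as the more abundant, and the row may count the other. The first 3 are the photoreceptor cluster and the next a neuronal miRNA, which show where 1 retina departs from its fellow. The red blood cell miRNAs follow, then 3 of the rows with the smallest p-values for a right excess, and last the row with the largest median difference among those of at least 10 CPM.
mmu-miR-183-5p: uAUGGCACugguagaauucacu
mmu-miR-182-5p: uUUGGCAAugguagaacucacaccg
mmu-miR-96-5p: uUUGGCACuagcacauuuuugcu
mmu-miR-9-5p: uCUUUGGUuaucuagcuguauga
mmu-miR-451a: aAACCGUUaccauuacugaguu
mmu-miR-144-3p: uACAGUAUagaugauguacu
mmu-miR-21a-5p: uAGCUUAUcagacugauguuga
mmu-miR-106b-5p: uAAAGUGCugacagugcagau
mmu-miR-17-5p: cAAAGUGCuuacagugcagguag
mmu-miR-101b-3p: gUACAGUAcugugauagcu
Only miR-106b-5p and miR-17-5p have the same seed among these, AAAGUGC.

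Mature miRNA reads ran from 7584694 to 14120605 in right libraries and from 5968388 to 12930912 in left libraries, and the right library was the deeper in 4 of 8 mice. Levels are given as CPM, counts per 1000000 mature miRNA reads of the same library, as the authors' alignment table gives those reads. Differences are right minus left on the log2(CPM + 0.5) scale, so that a positive value means higher in the right retina and the change of a low row is understated. A library's 388 rows held 10.9% to 18.9% of its mature miRNA reads (median 12.7%), and the values are those of the rows as deposited. The rows of retinal miRNAs were present in every library. Summed over its 3 rows, the miR-183 cluster had a median of 721 CPM in right retinas (52.9 to 805) and of 727 CPM in left retinas (296 to 943). The 3 mir-9 rows summed to a median of 8960 CPM in right retinas (2601 to 10187) and 9857 CPM in left retinas (7631 to 13137). Both of the lowest right values belonged to mouse gRho mouse 1.

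Some libraries and rows stood apart. The right retina of mouse gRho mouse 1 had the lowest sums of retinal miRNAs, and in 3 mice at least 1 library had over 2% rRNA among its aligned reads, namely both retinas of uninjected mouse 3 (3.83% right and 3.00% left), the left retina of mouse gRho mouse 2 (6.20%, beside 0.321% right) and the right retina of mouse gRho mouse 3 (3.08%, beside 0.473% left). Moreover, 56 of the 388 rows jumped between 2 levels across the 16 libraries. They had a highest count of at least 30 and a gap in the sorted log2 values of at least 3.5, or of at least 2 with 2 or more libraries on each side. The other 332 rows are called steady, and results are given for all rows and for the steady ones. In all 8 mice the right library's number on the sequencing sheet, as the titles give it, was 1 after that of the left, so the side and this number cannot be told apart.

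The first question was how alike fellow retinas are. In 7 of 8 mice most miRNA rows stood close to the diagonal of equal levels, and mouse gRho mouse 1 was the exception. The median absolute difference over 388 rows was 0.290 log2 units in human gRHO mouse 1, and 0.833, 0.491, 0.304 and 0.281 in mouse gRho mice 1 to 4. It was 0.298 in saline mouse 1, and 0.342 and 0.491 in uninjected mice 1 and 3. Uninjected and treated mice thus overlapped in this measure, and the highest value outside mouse gRho mouse 1 was shared by a mouse gRho and an uninjected mouse, both with an rRNA-rich library. Mouse gRho mouse 3, which also has one, stood at 0.304, and the part of rRNA content in this measure was not tested. Levels lay within 2-fold in 56.7% of rows in mouse gRho mouse 1 and in 77.3% to 89.9% in the other mice (median over 8 mice 84.4%). Among steady rows these shares were 59.6% and 82.2% to 93.4%.

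**Figure D1:**
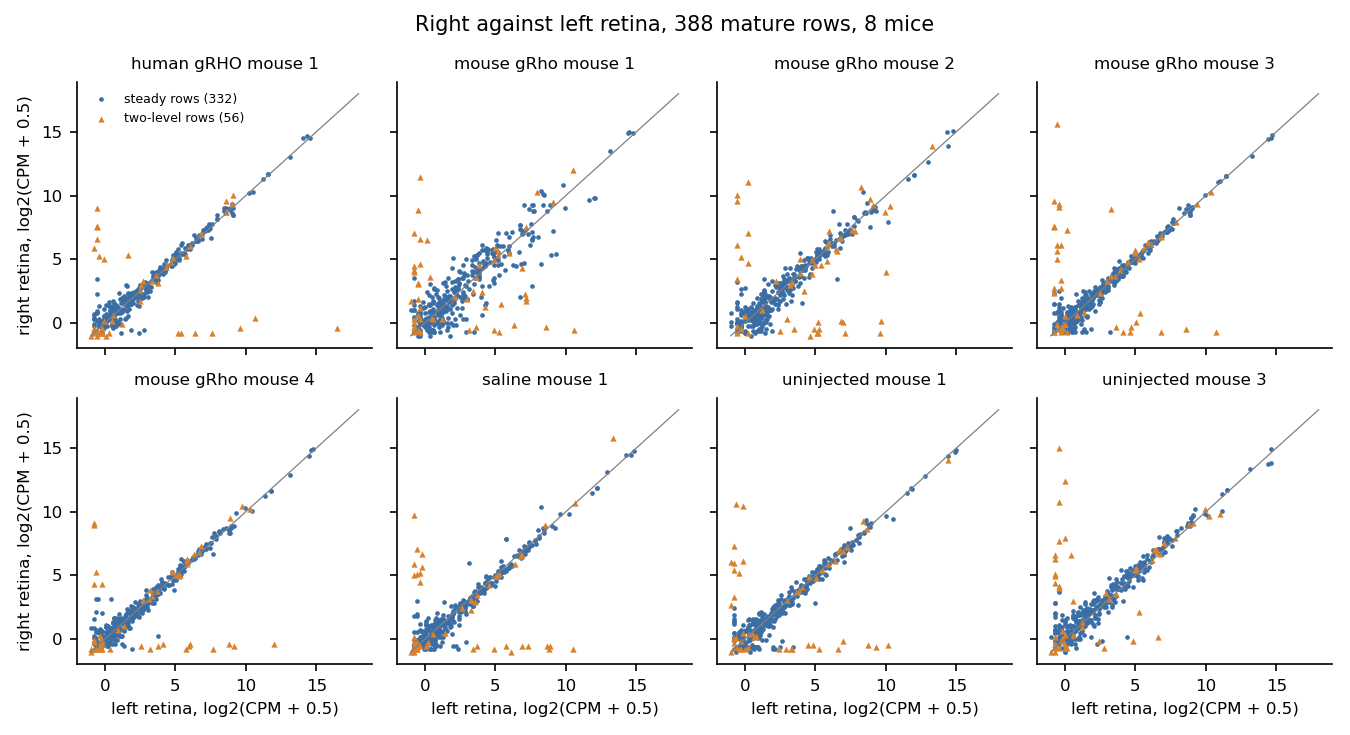
Right against left level of each of the 388 rows in 8 mice, as log2(CPM + 0.5), with the line of equality. Steady rows follow the line except in mouse gRho mouse 1. Two-level rows lie along an axis where 1 retina is high and the fellow near 0, and otherwise where both retinas are high or both low.

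Across steady rows the Pearson correlation between right and left levels was 0.907 in mouse gRho mouse 1 and 0.958 to 0.976 in the others. With the two-level rows included it was 0.786 to 0.858. Rows of 1 pair of libraries are not independent, and a wide range of levels is shared by all retinas. Fellow libraries differed by more than counting noise in every mouse: the smallest chi-square per degree of freedom over steady rows was 16.2, in mouse gRho mouse 3, and the share of all rows with a difference beyond counting error ran from 28.4% to 60.1%.

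The second question was whether a retina is nearer to its fellow than to the retina of another mouse. The right retina lay nearer to its own left retina than to the other 7 left retinas in 5 of 8 mice, both over all rows and over steady rows. Human gRHO mouse 1, uninjected mouse 3 and mouse gRho mice 3 and 4 were among them in either case, with saline mouse 1 over all rows and uninjected mouse 1 over steady rows. Over all rows the own left retina of uninjected mouse 1 ranked 2 of 8, at 0.342 beside 0.338 for the left retina of mouse gRho mouse 1. In mouse gRho mouse 1 it ranked 6, at 0.833, with other left retinas at 0.684 to 0.902. In mouse gRho mouse 2, whose left library was the shallowest and richest in rRNA, it ranked 8, at 0.491 beside 0.365 to 0.473. The mean distance between fellows was 0.416, and 0.439 over the 48 ways of assigning right to left retinas within a treatment group (one-sided exact permutation test, p = 0.0833; the smallest p this design allows is 0.0208). At 0.05 this test thus did not show fellow retinas to be nearer to each other than retinas of the same group. The saline and human gRHO groups have 1 pair each, which stays the same in every assignment and adds nothing to the test. With TMM factors the mean was 0.395, and with each pair centred on its median difference it was 0.398, both with p = 0.0417 in the same exact permutation test.

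**Figure D2:**
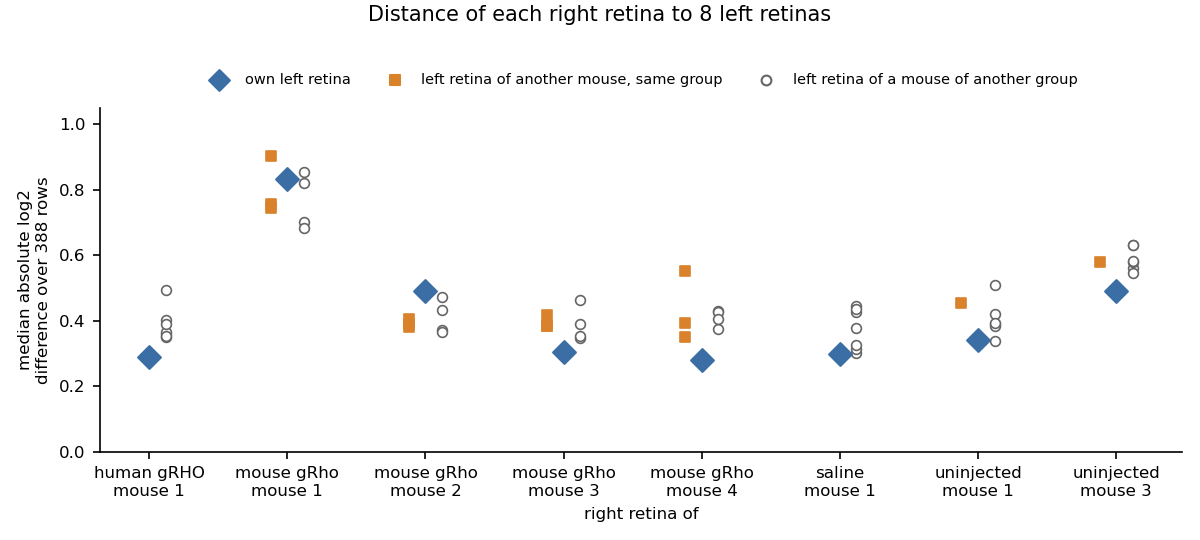
Median absolute log2 difference between each right retina (x axis) and the 8 left retinas over 388 rows: diamonds are the own left retina, squares left retinas of other mice of the same group, circles those of other groups. The diamond is lowest in 5 of 8 mice, and all distances of the right retina of mouse gRho mouse 1 are high.

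The median SD within a mouse was 0.451 log2 units over steady rows, and the median SD of the mouse means was 0.350, which includes the spread of the retinas averaged. Without mouse gRho mouse 1 the median SD within a mouse was 0.363. The intraclass correlation estimates the share of the variance that lies between mice and can fall below 0. With mouse gRho mouse 1 included, its median was 0.108, and it was above 0 in 197 of 332 rows. Rows with at least 10 CPM and the highest values, chosen after they were seen, were mir-1843b (0.76), mir-671 (0.73), the rows of the muscle miRNA miR-133a (0.70 each), mir-154 (0.69) and mir-484 (0.63). The row of mir-1843b ran from 19.2 to 29.7 CPM in right retinas and from 17.5 to 25.8 in left retinas, and its highest levels on either side belonged to mouse gRho mouse 4. In mir-484 the highest level on either side belonged to uninjected mouse 3, at 716 CPM right and 488 CPM left. The other right retinas had 330 to 537 CPM and the other left retinas 330 to 475 CPM. Both libraries of uninjected mouse 3 were rich in rRNA (3.83% right and 3.00% left), and the part of this in its levels was not tested.

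The rows with the smallest difference between fellows on the scale of mature miRNA reads are given by their median absolute difference over 8 mice, among the 164 rows that averaged 10 CPM or more. They were mir-671 (0.060 log2 units), mir-125b-1 (0.079), mir-370 (0.106), mir-382 (0.111), mir-125a (0.113), mir-151 (0.114), mir-411 (0.133), mir-1981 (0.138), mir-361 (0.139) and mir-24-2 (0.140), followed by the next row at 0.146. The order depends on the scale. With TMM factors mir-671 stood at 0.190 and mir-361 at 0.067, and with total reads as the scale mir-125b-1 stood at 0.256 and mir-151 at 0.421. Leaving out 1 mouse moved mir-125b-1 between 0.046 and 0.112, mir-151 between 0.065 and 0.162 and mir-1981 between 0.071 and 0.206. None of these 10 was two-level. mir-125b-1 and mir-125a, relatives of the worm lin-4 that are abundant in glia, are members of the Mueller glia list. mir-125b-1 had a median of 42.2 CPM in right retinas (33.7 to 64.8) and 38.0 CPM in left retinas (33.3 to 51.7). A small median did not mean a small difference in each mouse: mir-370, of the imprinted Dlk1-Dio3 cluster, differed by -2.85 in mouse gRho mouse 1.

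Of the 125 steady rows with at least 10 CPM, 58 stayed within 2-fold in all 8 mice. In the 7 mice other than mouse gRho mouse 1, all but 22 did. In that mouse 57 of the 125 rows differed by 2-fold or more, 28 higher and 29 lower in the right retina. In the other mice between 1 and 11 rows did. The 7 rows beyond 2-fold in at least 2 of the other 7 mice, named after their values were seen, were mir-451a and mir-144 of red blood cells, mir-184 of lens and cornea, mir-219a-2, a miRNA of oligodendrocytes, mir-211, let-7d and mir-582.

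The rows of the photoreceptor miR-183 cluster and of mir-9 and mir-124 lay within 2-fold between fellow retinas in each mouse but mouse gRho mouse 1. mir-183 had a median of 496 CPM in right retinas (42.4 to 561) and 501 CPM in left retinas (214 to 641). It differed by 0.10 in human gRHO mouse 1, -0.11 in saline mouse 1 and 0.52 and 0.20 in uninjected mice 1 and 3. In mouse gRho mice 2 to 4 it differed by -0.14, 0.01 and 0.59. The lowest level in both eyes but for that 1 retina belonged to mouse gRho mouse 4, at 321 CPM right and 214 CPM left. mir-182 and mir-96, the other members of the cluster, ranged from -0.34 to 0.91 in these 7 mice. The median log2 fold change of the 3 rows was -0.19, beside 0.07 over all 388 rows, and without mouse gRho mouse 1 it was 0.17. Mean differences over the 7 mice were 0.17 for mir-183, 0.22 for mir-182 and 0.08 for mir-96.

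The mir-9 rows, copies of 1 miRNA that can share reads, differed alike within each mouse. mir-9-1 had a median of 3216 CPM in right retinas (895 to 3688) and 3557 CPM in left retinas (2781 to 4711), with differences between -0.37 and 0.23 in the 7 mice other than mouse gRho mouse 1. With that mouse left out, the median within-mouse SD was 0.158 for the mir-9 rows and 0.223 for the miR-183 cluster, beside 0.363 over all steady rows. The activity-regulated mir-132 and mir-212 had 0.163 and the miR-181 family, which is abundant in the inner retina, 0.253. A member of that family reached -1.33 in mouse gRho mouse 2, whose left library was the richest in rRNA.

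The miR-204 family was higher in the right retina in most mice without passing the test. mir-204 had a median of 128 CPM in right retinas (103.8 to 255) and 110.9 CPM in left retinas (79.5 to 147), and was higher on the right in 7 of 8 mice, or 6 of 8 with TMM factors (log2 fold change 0.31, SE 0.189, unadjusted p = 0.14 by edgeR's quasi-likelihood test). mir-211 was higher on the right in 6 of 8 mice (0.42, SE 0.258). The largest differences were those of uninjected mouse 3, at 1.35 for mir-204 and 1.49 for mir-211, and of mouse gRho mouse 2 for mir-211, at 1.55. Both mice have an rRNA-rich library. With the 3 mice that have one left out, the median log2 fold change of the 2 rows was 0.09, against 0.36 with all mice, and it was 0.04 over all rows. Without uninjected mouse 3 it was 0.21. In saline mouse 1 both rows were lower on the right, with differences of -0.40 and -0.45. The median of the 2 rows was 0.50 in human gRHO mouse 1, 0.30 in mouse gRho mouse 4 and 0.21 in uninjected mouse 1. It was -0.13 in mouse gRho mouse 1. None of these mice has an rRNA-rich library. Mouse gRho mouse 3, which has one, stood at 0.25. The part of rRNA content in these differences was not tested.

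Mouse gRho mouse 1 is where fellow retinas differed most. Its right retina had 42.4 CPM of mir-183, against 641 CPM in the left, a difference of -3.90. mir-182 stood at 6.92 CPM right and 197 CPM left (-4.73), and mir-96 at 3.56 CPM right and 105.1 CPM left (-4.70). The sum of the cluster was 52.9 CPM in this right retina, the lowest of the 16 libraries, and 943 CPM in its fellow, the highest. The other 15 libraries had 296 CPM or more. The mir-9 rows differed by -2.22, -2.22 and -1.99. The 3 rows of mir-124, set aside as two-level because of this 1 library, had 42, 34 and 28 counts on the right and 1359, 1420 and 1423 counts on the left. mir-375 (-3.61), mir-129-2 (-3.58), mir-190b (-3.49) and mir-132 (-2.31) were lower on the right as well, as was mir-433 (-1.65).

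Other rows were higher in that right retina. mir-199b, of mesenchymal cells, had 626 CPM right and 129 CPM left (2.28). mir-184 had 32.5 CPM right and 7.24 CPM left (2.09), and the epithelial mir-200a, mir-200b and mir-205 differed by 2.06, 1.93 and 1.46. All 7 steady rows of the list for surface epithelium, lens and cornea were higher on the right. Their sum was 322 CPM, against 80.1 to 147 CPM in the other 15 libraries, and none of the 7 was at 0 in any library. All 5 steady endothelial and mural rows were higher too, among them mir-145a of smooth muscle (1.62) and mir-126a of endothelium (1.02), with a sum of 2952 CPM against 792 to 2009 CPM elsewhere. Of the 5 steady rows of leukocytes and microglia 4 were higher, among them mir-223 (2.68) and mir-142a (1.56), and mir-342 was lower (-1.52). The two-level mir-155 of the same list had 4 counts right and 783 left (-6.45). The summed level of the 5 rows ranked 15 from the lowest of the 16 libraries. mir-204 and mir-211 differed by 0.05 and -0.32. In bulk retina, fewer cells of a type and less RNA per cell cannot be told apart, and the part of epithelial, vascular or blood RNA in the low retinal levels was not tested. The libraries of this mouse were of like depth, at 9824784 reads right and 9939390 left, and had 0.878% and 0.362% rRNA. They differed in other classes of aligned reads. Reads classed as crossmapped miRNA made up 17.0% right and 10.2% left, and mature miRNA 77.9% right and 85.9% left.

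**Figure D3:**
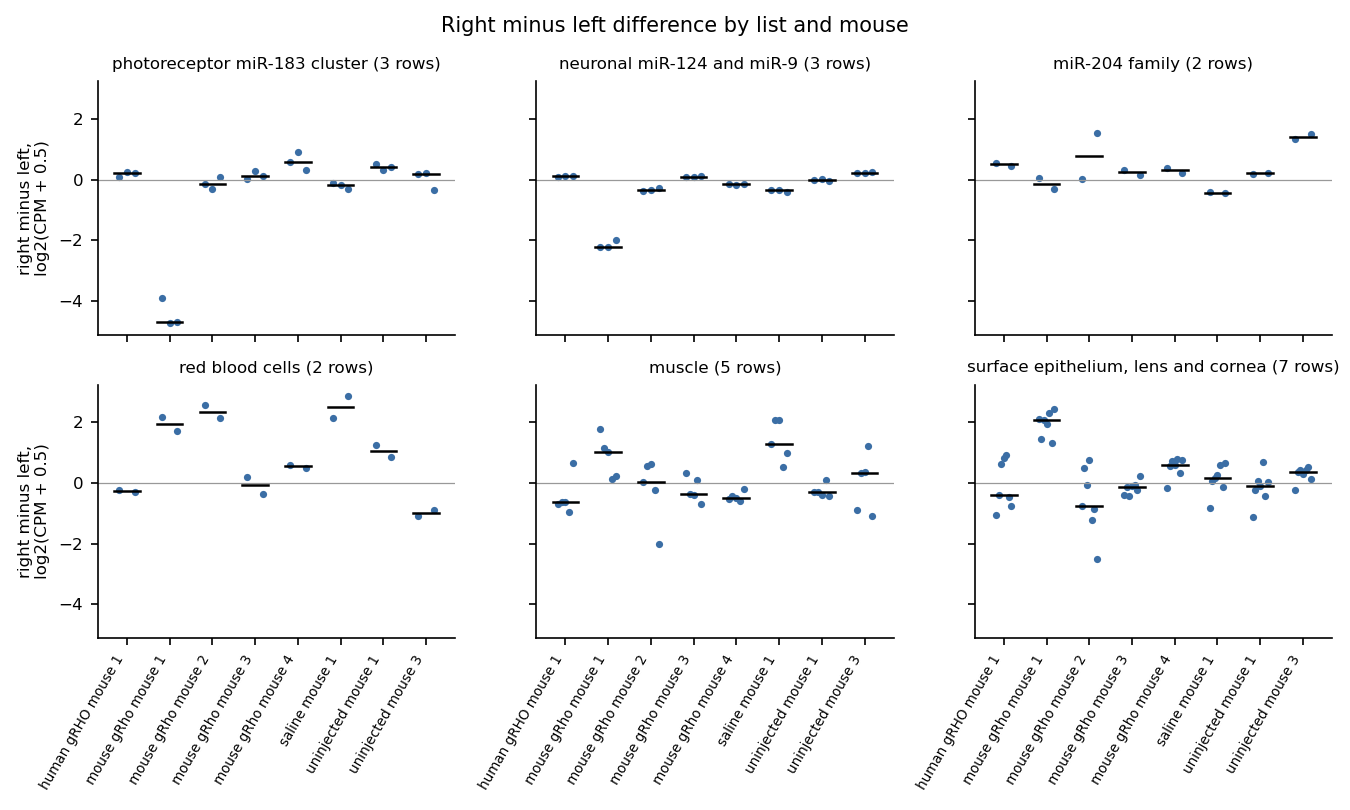
Right minus left difference of the steady rows of 6 lists (points) with the median of each list (bars), by mouse, on the log2(CPM + 0.5) scale. In mouse gRho mouse 1 the photoreceptor and neuronal rows lie below 0 and the epithelial rows above it, and the red blood cell rows are spread over several mice on either side of 0.

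With mouse gRho mouse 1 left out, the red blood cell list had the largest within-mouse SD of the 12 lists over steady rows (1.02). With that mouse included, the miR-183 cluster had the larger SD, at 1.19 beside 1.07 for red blood cells. The red cell differences went in both directions. mir-451a, made in red cell precursors without Dicer, and mir-144, from the same transcript, were both lower in the right retina in uninjected mouse 3 and human gRHO mouse 1 and both higher in 5 other mice. mir-451a had 1265 CPM right and 1495 CPM left in human gRHO mouse 1, and 1347 CPM right and 305 CPM left in saline mouse 1. In mouse gRho mice 1 to 4 the right retinas had 1329, 448, 2135 and 966 CPM and the left retinas 297, 75.9, 1855 and 638 CPM. Uninjected mouse 1 had 422 CPM right and 176 CPM left, and uninjected mouse 3 had 1053 CPM right and 2238 CPM left. The right levels thus fell within the range of the left levels, and the single mice ran from -1.09 to 2.55.

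The 2 red cell rows had the same sign in 7 of 8 mice, and differed by 2-fold or more together in saline mouse 1 (2.14 and 2.85) and in mouse gRho mice 1 (2.16 and 1.72) and 2 (2.55 and 2.13). The mean levels of mir-451a were 1121 ± 550 CPM in right retinas and 885 ± 849 CPM in left retinas (SD, n = 8). The log2 fold change was 0.96 for mir-451a (SE 0.452) and 0.83 for mir-144 (SE 0.476), and neither passed the threshold. The within-mouse SD of the 2 rows, with mouse gRho mouse 1 left out, was 1.02, beside 0.363 over all steady rows.

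The rows of muscle miRNAs, whose source in these libraries was not tested, varied between mice as well as between eyes. The mir-133a-2 row had a median of 337 CPM in right retinas (83.1 to 543) and 320 CPM in left retinas (54.0 to 542). It was low in both retinas of mouse gRho mouse 2, at 83.1 CPM right and 54.0 CPM left, and of uninjected mouse 1, at 99.7 CPM right and 132 CPM left. The largest difference was that of saline mouse 1, with 234 CPM right and 54.6 CPM left (2.09), the same retina in which the red cell rows were high. All 5 steady muscle rows were higher on the right in saline mouse 1 and in mouse gRho mouse 1. The 5 steady muscle rows summed to 165 to 1078 CPM in right retinas and 110 to 1099 CPM in left retinas. This sum leaves out the two-level rows, of which mir-1a-2 reached 56772 CPM right and 88632 CPM left. Of the 5 steady rows mir-208b, a heart and slow muscle miRNA, was at 0 in 1 library. The part of such RNA in other differences was not tested.

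**Figure D4:**
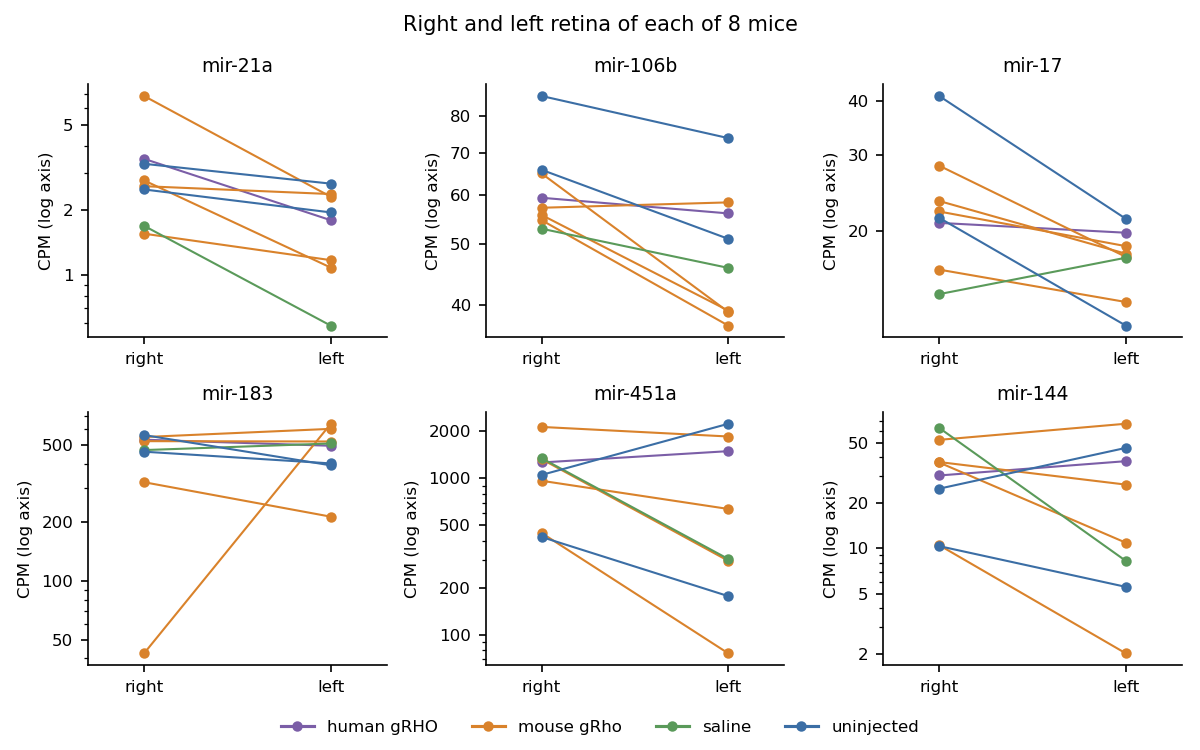
CPM (log axes, not starting at 0) of 6 rows in the right and left retina of each mouse, joined by a line and coloured by group. On this scale mir-21a is higher on the right in all 8 mice and mir-106b and mir-17 in 7, mir-183 departs in mouse gRho mouse 1, and mir-451a and mir-144 move in both directions.

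The third question was whether any miRNA differed between right and left in the same direction across mice. No row passed the test: 0 of 388 rows (0.0% higher and 0.0% lower on the right) passed an adjusted p of 0.05 with edgeR's quasi-likelihood test with a term for the mouse, and the smallest adjusted p was 0.929. An unadjusted p under 0.05 was found in 12 rows, which is 3.09%. DESeq2 called 4 rows, 3 higher (0.773%) and 1 lower (0.258%) on the right, with 6.96% under an unadjusted 0.05. All but 1 of the 4, mir-92a-2, mir-344-2 and mir-3099, are two-level rows, whose difference rests on which retinas had the high level. The other was mir-452, with 1 to 50 counts per library. Over steady rows the standard error of the log2 fold change had a median of 0.285. A difference of about that size can be missed in a row with this error, and a count of 0 does not show that the sides are alike.

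The row with the smallest p was mir-21a, a miRNA induced in many injured and inflamed tissues. It was higher in the right retina in 8 of 8 mice, the only steady row of which that holds on this scale, and in 7 of 8 with TMM factors, where uninjected mouse 3 stood at -0.02. Right retinas had a median of 2.68 CPM (1.56 to 6.82) and left retinas of 1.88 CPM (0.581 to 2.66), which overlap. The counts were 39, 67, 22, 24, 29, 19, 32 and 25 in the right retinas of human gRHO mouse 1, mouse gRho mice 1 to 4, saline mouse 1 and uninjected mice 1 and 3, and 20, 23, 7, 28, 14, 6, 24 and 21 in the left. The log2 fold change was 0.81 (SE 0.236, unadjusted p = 0.0076 and adjusted p = 0.929 by edgeR's quasi-likelihood test). The lowest left libraries had 7 and 6 counts, so counting error is large in this row.

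mir-106b and mir-17, of the miR-17 family that promotes proliferation and with the common seed AAAGUGC, came next among rows of more than 10 CPM. mir-106b had a median of 58.2 CPM in right retinas (52.9 to 86.2) and 48.4 CPM in left retinas (37.0 to 73.8), and was higher on the right in 7 of 8 mice (log2 fold change 0.33, SE 0.117, unadjusted p = 0.0203). mir-17 had a median of 21.8 CPM in right retinas (14.3 to 41.0) and 17.6 CPM in left retinas (12.1 to 21.3), also higher on the right in 7 of 8 mice (0.40, SE 0.156, unadjusted p = 0.0314, both by edgeR). Their exceptions differed, being mouse gRho mouse 3 for mir-106b (-0.03) and saline mouse 1 for mir-17 (-0.27). With TMM factors mir-106b was higher on the right in 5 of 8 mice (0.24) and mir-17 in 6 of 8 (0.31). The 2 rows can share reads with other members of the family and are uncertain as separate measurements.

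The other rows named by the smallest p-values were low. mir-452 averaged 2.63 ± 2.29 CPM in right and 0.416 ± 0.583 CPM in left retinas (SD, n = 8) and was higher on the right in 6 of 8 mice. mir-7688 averaged 4.45 ± 1.56 CPM right and 2.98 ± 0.996 CPM left and was higher on the right in 7 of 8, and in 6 of 8 with TMM factors. Lower on the right were mir-543 (-0.47, SE 0.196), mir-433 (-0.39, SE 0.20, and -0.21 without mouse gRho mouse 1) and mir-758 (-1.31, SE 0.70), which belong to the Dlk1-Dio3 cluster, as well as mir-1947 (-1.08) and the two-level mir-138-1 (-1.40), a neuronal miRNA. mir-758 rests on 2 mice, human gRHO mouse 1 with 2 counts right and 69 left and mouse gRho mouse 1 with 1 right and 71 left. mir-138-1 was lower on the right in 8 of 8 mice, with -5.11 in mouse gRho mouse 2 and -0.20 to -1.28 in the others.

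Over all steady rows, the mean difference was above 0 in 200 and below 0 in 132. The right retina was higher in at least 7 mice in 22 rows, and lower in at least 7 in 6 rows. With TMM factors the median log2 fold change of all rows moved to -0.01, against 0.07. The same counts over steady rows were then 164 and 168, and 12 and 13. These factors centre the differences between libraries near 0, so a nearly even split follows largely from the scale. It cannot show whether the right side is higher on the scale of mature miRNA reads.

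Leaving out 1 mouse turned some of the lists round. In all 12 lists 0 rows passed, at a background of 0.0% over the 388 rows in either direction. The miR-183 cluster leaned to the left in 3 of 3 rows, the miR-124 and miR-9 list in 6 of 6 (median log2 fold change -0.27) and the activity-regulated list in 2 of 2 (-0.20). Without mouse gRho mouse 1 these leaned to the right in 3 of 3, 3 of 6 (0.04) and 2 of 2 (0.02). The let-7 family, regulators of differentiation, leaned to the right in 11 of 12 rows with a median of 0.07, equal to that of all rows, and in 6 of 12 with TMM factors (-0.02). The Mueller glia list, which shares the mir-9 rows and mir-204 with the lists named before, leaned to the right in 9 of 12 rows (0.19, and 0.07 with TMM factors).

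The other lists are read against all rows. Of these, 225 of 388 (58.0%) leaned to the right, and 61.2% without mouse gRho mouse 1 (median 0.07). In the endothelial and mural list this held for 5 of 5 rows (0.23), and for 4 of 5 with TMM factors (0.15) or without mouse gRho mouse 1 (0.11). In the epithelial list it held for 6 of 9 rows (0.27), and for 5 of 9 without that mouse (0.11), close to the share of all rows. The microglia and leukocyte list had 5 of 7 rows on the right (0.45) and 7 of 7 without that mouse (0.41), the muscle list 6 of 7 (0.25) and 5 of 7 (0.13), and the red cell list 2 of 2 (0.90) and 2 of 2 (0.72). Counts of list rows include two-level rows, here mir-146a and mir-155 of leukocytes, mir-1a-2 and mir-206 of muscle, and mir-200c and mir-429 of epithelia. The direction of such a row rests on which retinas had the high level. For mir-155 the fellows stood on opposite levels in mouse gRho mouse 1 alone. The miR-181 family was even, with 3 of 6 (0.03). No score or p is given for a list, since the lists were chosen with results known.

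mir-142a, a miRNA of blood-borne and resident immune cells, had a median of 34.9 CPM in right retinas (27.9 to 58.9) and 26.8 CPM in left retinas (17.6 to 49.5) and was higher on the right in 7 of 8 mice (0.45, SE 0.188), and in 6 of 8 with TMM factors. Without mouse gRho mouse 1 its mean difference was 0.29. mir-200b, of epithelia and some neurons, was higher on the right in 6 of 8 (0.55, SE 0.229), with 0.36 without that mouse, and in 5 of 8 with TMM factors. In mir-184 the right retina was lower in 7 of 8 mice, with differences of -1.11 to -0.16, and higher in mouse gRho mouse 1 alone, which left a mean of -0.65 without it.

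Whether the difference between the sides itself differed between treated and uninjected mice was asked for mouse gRho, with 4 pairs, and no injection, with 2. No row passed (0 of 388, 0.0% in each direction; the smallest adjusted p was 0.522 with edgeR's quasi-likelihood test), and 16 rows, or 4.12%, had an unadjusted p under 0.05. DESeq2 called 10 rows, 6 with the larger right minus left difference in mouse gRho (1.55%) and 4 with the smaller (1.03%), and 9.28% were under an unadjusted 0.05. The 10 were mir-702, mir-146a, mir-539, mir-1982, mir-224 and mir-137 among the larger and mir-376c, mir-101b, mir-206 and mir-326 among the smaller. All but mir-539 and mir-137 are two-level rows. The counts of 2 of these two-level rows, mir-224 and mir-326, show what such a call can rest on. mir-224 had 1 to 10 counts in both retinas of the 4 mouse gRho mice. In uninjected mice 1 and 3 it had 1 and 5 counts right and 1174 and 781 left. mir-326 had 2, 411, 403 and 358 counts in the right retinas of mouse gRho mice 1 to 4 and 297, 340, 372 and 450 in the left. In the uninjected mice it had 537 and 605 counts right and 1 in each left. With edgeR, mir-326 passed when mouse gRho mouse 1 was left out, mir-376c without mouse gRho mouse 2 and mir-206 without mouse gRho mouse 4. All 3 are two-level rows.

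By median over mice, the largest differences between fellow retinas belonged to two-level rows. Among the 164 rows with at least 10 CPM the 20 with the largest median absolute difference were all two-level, which follows in part from the gap that defines such rows. The first 10 were mir-101b (10.6 log2 units), mir-328 (9.55), mir-1249 (7.40), mir-344-2 (6.64), mir-320 (5.58), mir-200c (5.34), mir-3099 (5.15), mir-218-2 (5.07), mir-298 (4.93) and mir-341 (4.68), and the next row stood at 4.03. For 3 of them the median lies between mice on the same level and mice on opposite levels, and leaving out 1 mouse moves it widely, from 0.887 to 10.3 for mir-320, from 0.728 to 9.96 for mir-200c and from 1.21 to 8.93 for mir-218-2, so their ranks hang on single mice. For the other 7 it stayed between 4.50 and 10.6.

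**Figure D5:**
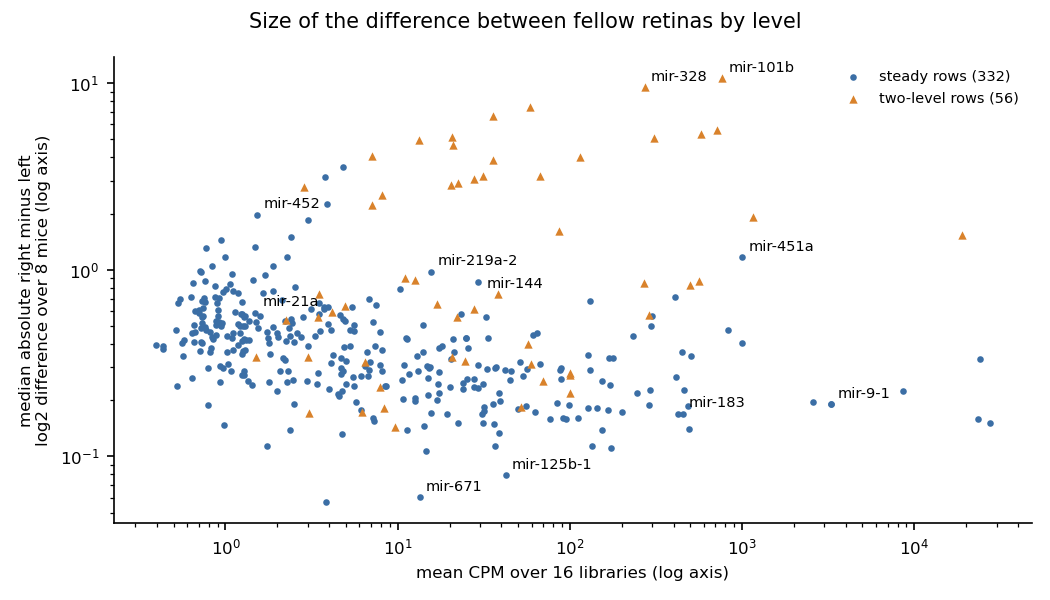
Median absolute right minus left difference of each row over 8 mice against its mean CPM over 16 libraries (both axes logarithmic). The 20 highest rows over 10 CPM are two-level, with mir-101b and mir-328 at the top, while other two-level rows lie among the steady ones. mir-451a is the highest steady row over 10 CPM, and mir-671 and mir-125b-1 are the lowest.

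mir-101b, a tumour suppressor and regulator of chromatin enzymes in other tissues, shows how such a row behaved. It had 18364 counts right and 5 left in uninjected mouse 1, 13476 right and 2 left in uninjected mouse 3, and 14742 right and 1 left in mouse gRho mouse 2. It had 1 right and 14852 left in saline mouse 1, and 2 right and 15179 left in mouse gRho mouse 1. In mouse gRho mice 3 and 4 both retinas were high, at 11455 and 12598 counts right and 15388 and 16092 left, and in human gRHO mouse 1 both were low, at 2 right and 1 left. Where both were high the difference was -0.08 and -0.05. A retina thus had either 11455 to 18364 counts or 1 to 5.

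Over the 48 two-level rows in which more than 1 library departed, fellow retinas stood on opposite levels in 158 of 384 row and mouse combinations, which is 41.1%. The right retina had the high level in 84 and the left in 74. A right and a left retina of different mice stood on opposite levels in 42.3% of 2688 combinations. The share was thus about the same for fellow and for unrelated retinas, and no test was made, since the rows of a library are not independent. The median count was 2 on the low level and 432 on the high. The remaining 8 two-level rows departed in 1 library each, 3 of them in the right retina of mouse gRho mouse 1.

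The largest difference within each mouse, among rows with 100 or more counts in either retina, was always that of a two-level row. It was 11.2 for mir-206 in uninjected mouse 1 and 15.4 for mir-1a-2 in uninjected mouse 3, both rows of muscle miRNAs. In mouse gRho mice 1 to 4 it was 11.8 and 10.8 for mir-320, 16.2 for mir-1a-2 and -12.4 for mir-206, in saline mouse 1 -11.3 for mir-101b, and in human gRHO mouse 1 -16.8 for mir-1a-2. The mir-1a-2 row had 3 counts right and 984970 left in the last, while the mir-1a-1 row of the same mature miRNA had 59 right and 98 left. The rule for two-level rows did not catch all jumps: mir-653 (a median absolute difference of 3.53) and mir-1224 (3.13), both under 10 CPM on average, had 3 counts or fewer in 1 retina and 44 or more in its fellow in 6 mice for mir-653 and 5 for mir-1224.

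Classes of reads other than mature miRNA were compared to see whether the libraries of the 2 sides differed. Of 12 classes, as shares of all reads of at least 15 bases, 0 passed the threshold between right and left (exact permutation test over all sign flips of the 8 differences, two-sided, smallest adjusted p = 0.938, smallest p possible 0.00781). Mature miRNA made up 59.3% ± 6.57 of reads in right and 59.4% ± 8.76 in left retinas (SD, n = 8), and rRNA 0.818% ± 0.892 right and 0.933% ± 1.23 left. The smallest unadjusted p in this exact test, 0.0938, was that of coding exons, with 0.0664% right and 0.0449% left, higher on the right in 7 of 8 mice. In mouse gRho mouse 2 mature miRNA made up 62.8% of reads right and 42.7% left.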

How the data were processed

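Small RNA of 16 retinas was analysed from read counts per miRNA locus and a table of reads per library and class of alignment, both deposited by the authors. The submitters' processing notes name DESeq2 without a version. The sources used here do not give the aligner, annotation or genome build. All columns of the matrix were mapped to samples by title. Counts were scaled by each library's mature miRNA reads. Rows with 10 or more counts in 3 or more libraries were tested with edgeR 4.0.16 (robust quasi-likelihood, R 4.3.3) with terms for mouse and eye, and Benjamini-Hochberg adjusted over 388 rows (threshold 0.05). DESeq2 1.42.0 and limma 3.58.1 served as alternatives, and scipy 1.17.1 for exact tests. The main fit holds the mouse as a block, since fellow retinas come from 1 animal if the titles are read rightly. The code was tested on simulated data. Statements on counting noise cover counting error only. Rows named are the 5 smallest p-values in each direction, the 10 largest and smallest median differences among rows of at least 10 CPM, the largest in each mouse, and list members. All other rows named, such as mir-199b, mir-375 and mir-653, were picked with their values in view. The members and lists were chosen with earlier results of these data known.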

Additional observations from a re-analysis of the deposited data

Results flagged for a closer look

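In 35 checks for a mouse far from the other mice, of which chance would mark about 1 in 20, 13 departed. In mouse gRho mouse 1 the median absolute difference over all rows was 0.833, the highest of 8. In the same mouse the median right minus left difference was -4.70 for the miR-183 cluster of photoreceptors, -2.22 for the mir-9 rows, -1.89 for the activity-regulated mir-132 and mir-212, 1.38 for microglia and leukocytes and 1.52 for endothelial and mural cells, and mir-433 stood at -1.65. In mouse gRho mouse 2, with the left library richest in rRNA, the right minus left difference was 15.9 percentage points for aligned reads and 20.1 for mature miRNA. It was -3.38 for rRNA, -3.91 for scRNA and 0.0836 for introns, and the two-level mir-138-1 stood at -5.11 (log2). These checks share mice and rows and are not independent.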

How the results depend on the processing

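With each of the other scales, filters, limma, no replicate block and each mouse left out, 0 rows passed in the right minus left comparison. DESeq2 called 4, and its median log2 fold change over all rows was -0.03, against 0.07. Without the replicate block 0 rows passed and 19 had an unadjusted p under 0.05. The fit with the mouse as a block rests on the pairing read from the titles. For the difference between mouse gRho and uninjected mice, DESeq2 called 10 rows, with a median of -0.05 against -0.19, and leaving out 1 mouse gave 0 to 1 calls. Without uninjected mouse 3 that median was 0.12. The distance between fellows passed with TMM factors (0.395) and with centred pairs (0.398), both with p = 0.0417 in the exact permutation test, but not with the two-level rows set aside (p = 0.0625 in that test), with no filter (exact p = 0.375), or with the Spearman distance (exact p = 0.292). Without mouse gRho mouse 4 the exact p was 0.417. With the 3 mice that have an rRNA-rich library left out, a setting chosen after seeing the data, only 2 reassignments remain, which tests nothing. Among the rows with the smallest p-values, 197 of 198 alternatives kept direction and side of the threshold, and mir-452 passed with DESeq2 (2.61). None of these rows passed in the main fit, so keeping the side means only that they still did not pass. Over the edgeR, DESeq2 and limma fits the unadjusted p ran from 0.0113 to 0.346 for mir-17, and from 0.0055 to 0.067 for mir-21a. In the read classes 0 passed under every alternative run. Depth limits rows such as mir-21a, with 6 to 67 counts.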
